A study of Drosophila melanogaster with 30 samples.

Results

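The mitochondrial ribosomal protein genes are the nuclear genes for the proteins of the ribosome inside mitochondria. They were taken here as every gene whose symbol begins mRpL or mRpS followed by a digit and whose mean FPKM (sequenced fragments normalized to transcript length and library size) over all libraries was at least 1. The rule used a name and a level, not a difference between groups. It found 73 genes among the 17488 in each table, 47 named for the large subunit (mRpL) and 26 for the small subunit (mRpS), and no candidate was lost to the level, since the lowest member had a mean of 14.2 FPKM. All 73 were among the 8335 genes tested.

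Poly(A) RNA was sequenced, without keeping strand, from the midgut of adult Drosophila melanogaster, dissected into an anterior part (regions a1 to a3) and a posterior part (p1 to p4). The flies were fertilized females of 10 to 12 days, kept with males, and moved to their diet as pupae. In each region there were 5 conditions of 3 libraries: y[1]w[1] wild type on a control diet, that strain on lipid-depleted food, that strain on food with 0.2% cholesterol (high-cholesterol, 4 times as much as in control food), and the Hr96[1] and Hr96[2x] strains on the control diet, which makes 30 libraries in 10 groups. Hr96 encodes a nuclear receptor that binds sterols and regulates lipid genes in the fly gut; the submitters call both strains mutants, and whether they carry the y[1]w[1] background is not stated, so the allele and the background cannot be told apart. From 30 to 50 regions were pooled for a library. Nothing states that the replicates were separate cultures, and the p-values then reflect only how these samples vary, possibly for technical reasons.

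Mitochondria keep a small genome of their own, and the ribosome that reads it makes only a few membrane-embedded subunits of the respiratory chain and of ATP synthase. The RNAs of that ribosome come from the mitochondrial genome, while its proteins are made in the cytosol from nuclear genes and imported, so nuclear and mitochondrial gene products are built into the same complexes. Part of the proteins have bacterial counterparts, 43 of the 73 here, and the other 30 were added after the bacterial ancestor. The small subunit binds the message and decodes it, and the large subunit joins the amino acids and feeds the chain into the inner membrane. By their place in the mammalian mitochondrial ribosome, 49 members belong to the large subunit, mRpS18A and mRpS30 among them, and 24 to the small subunit. The midgut absorbs and repackages dietary lipid, and its enterocytes are rich in mitochondria.

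The members were transcribed at moderate and similar levels. On the FPKM scale after scaling between libraries, which allows levels of different genes to be compared per length, the mean over all libraries ran from 13.8 to 95.8, with a median of 30.8. The highest were mRpL33 at 95.8, mRpL34 at 77.4, mRpL42 at 71.9 and mRpL12 at 71.5. The first is a small protein of the large subunit, mRpL34 is a short basic protein buried in its RNA, mRpL42 lacks a bacterial counterpart, and mRpL12 forms the flexible stalk that recruits translation factors. The lowest were mRpL11, at the base of that stalk, and mRpS31, both at 13.8, then mRpL37 at 16.3 and mRpL21 at 18.1. Together the members took between 0.103% and 0.382% of the deposited FPKM of a library. The genes lie on all the large chromosome arms, 21 on 3R, 17 on 3L, 12 on 2L, 12 on 2R and 11 on X. The loci of 43 overlap that of another annotated gene. Where transcribed stretches are shared, reads of the pair cannot be told apart in these unstranded libraries.

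The difference between replicates was larger than counting error for every member. The confidence limits in the tables imply a median of 342 fragments per member and library, with 48.2 to 1844 as the lowest and highest values. Counting alone would then give a replicate SD of 0.083 on the log2 scale for the median member, while the SD between replicates was 0.28, and the first was the smaller in 73 of 73 members. The ratio of the highest to the lowest of the 10 group means had a median of 1.71, and it stayed under 2 in 58 of 73 members. The widest ranges were those of mRpL27 with a ratio of 2.83, mRpL23 with 2.61 and mRpS6 with 2.58.

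The level of the set varied from library to library. The median log2 level of the 73 genes was 4.74, 4.79 and 4.86 in the anterior control libraries and 4.77, 4.98 and 5.06 in the posterior ones. In Hr96[1] it was 5.08, 5.16 and 5.23 in the anterior midgut and 5.14, 5.06 and 5.68 in the posterior midgut. Every anterior Hr96[1] library was thus above every anterior control, while posterior Hr96[1] replicate 2 was level with the highest posterior control. In Hr96[2x] it was 5.33, 4.77 and 5.17 in the anterior and 5.28, 4.89 and 4.99 in the posterior midgut, where anterior replicate 2 and posterior replicates 2 and 3 fell within the range of the controls. On the lipid-depleted diet it was 5.02, 4.68 and 4.57 (anterior) and 4.998, 4.58 and 4.61 (posterior), and on the high-cholesterol diet 4.98, 4.63 and 4.58 (anterior) and 5.05, 4.84 and 4.65 (posterior). In each of these 4 diet groups replicate 1 was the highest library and replicates 2 and 3 were lower than or within the controls. Replicate 1 was the highest of its 3 libraries in 6 of the 10 groups.

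**Figure D1:**
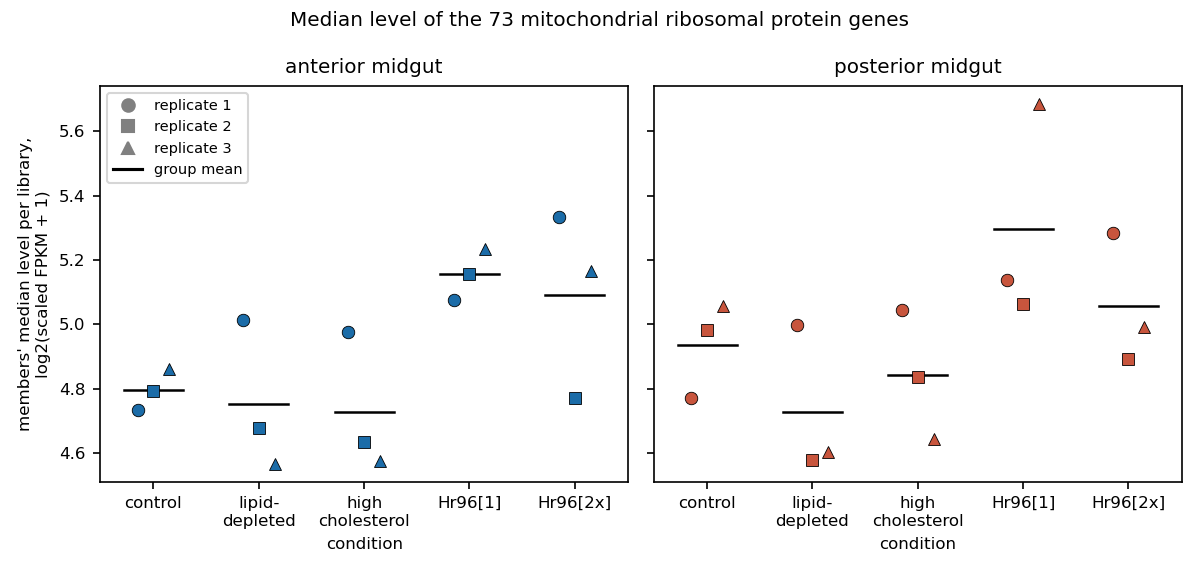
The median log2(scaled FPKM + 1) of the 73 genes (vertical axis) in each library, by condition (horizontal axis), with the anterior midgut in the left panel and the posterior midgut in the right; marker shape gives the replicate number and the bar the group mean. The 3 anterior Hr96[1] libraries sit between 5.08 and 5.23, above the anterior control libraries at 4.74 to 4.86, while the diet groups spread downward from a high replicate 1.

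As group means with SD over 3 libraries, the members' median level was 4.80 ± 0.06 in the anterior control, 5.16 ± 0.08 in anterior Hr96[1] and 5.09 ± 0.29 in anterior Hr96[2x]. Posterior means were 4.94 ± 0.15 in the control, 5.30 ± 0.34 in Hr96[1] and 5.06 ± 0.20 in Hr96[2x]. Of the 73 members, 41 had their highest group mean in posterior Hr96[1], 15 in anterior Hr96[1], 9 in anterior Hr96[2x] and 3 in posterior Hr96[2x], which leaves 5 with the highest mean in a wild-type group. The lowest group mean was in anterior high-cholesterol for 29 members, in posterior lipid-depleted for 22 and in anterior lipid-depleted for 10, so a diet group held it for 61 members. These counts describe an ordering and carry no test.

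**Figure D2:**
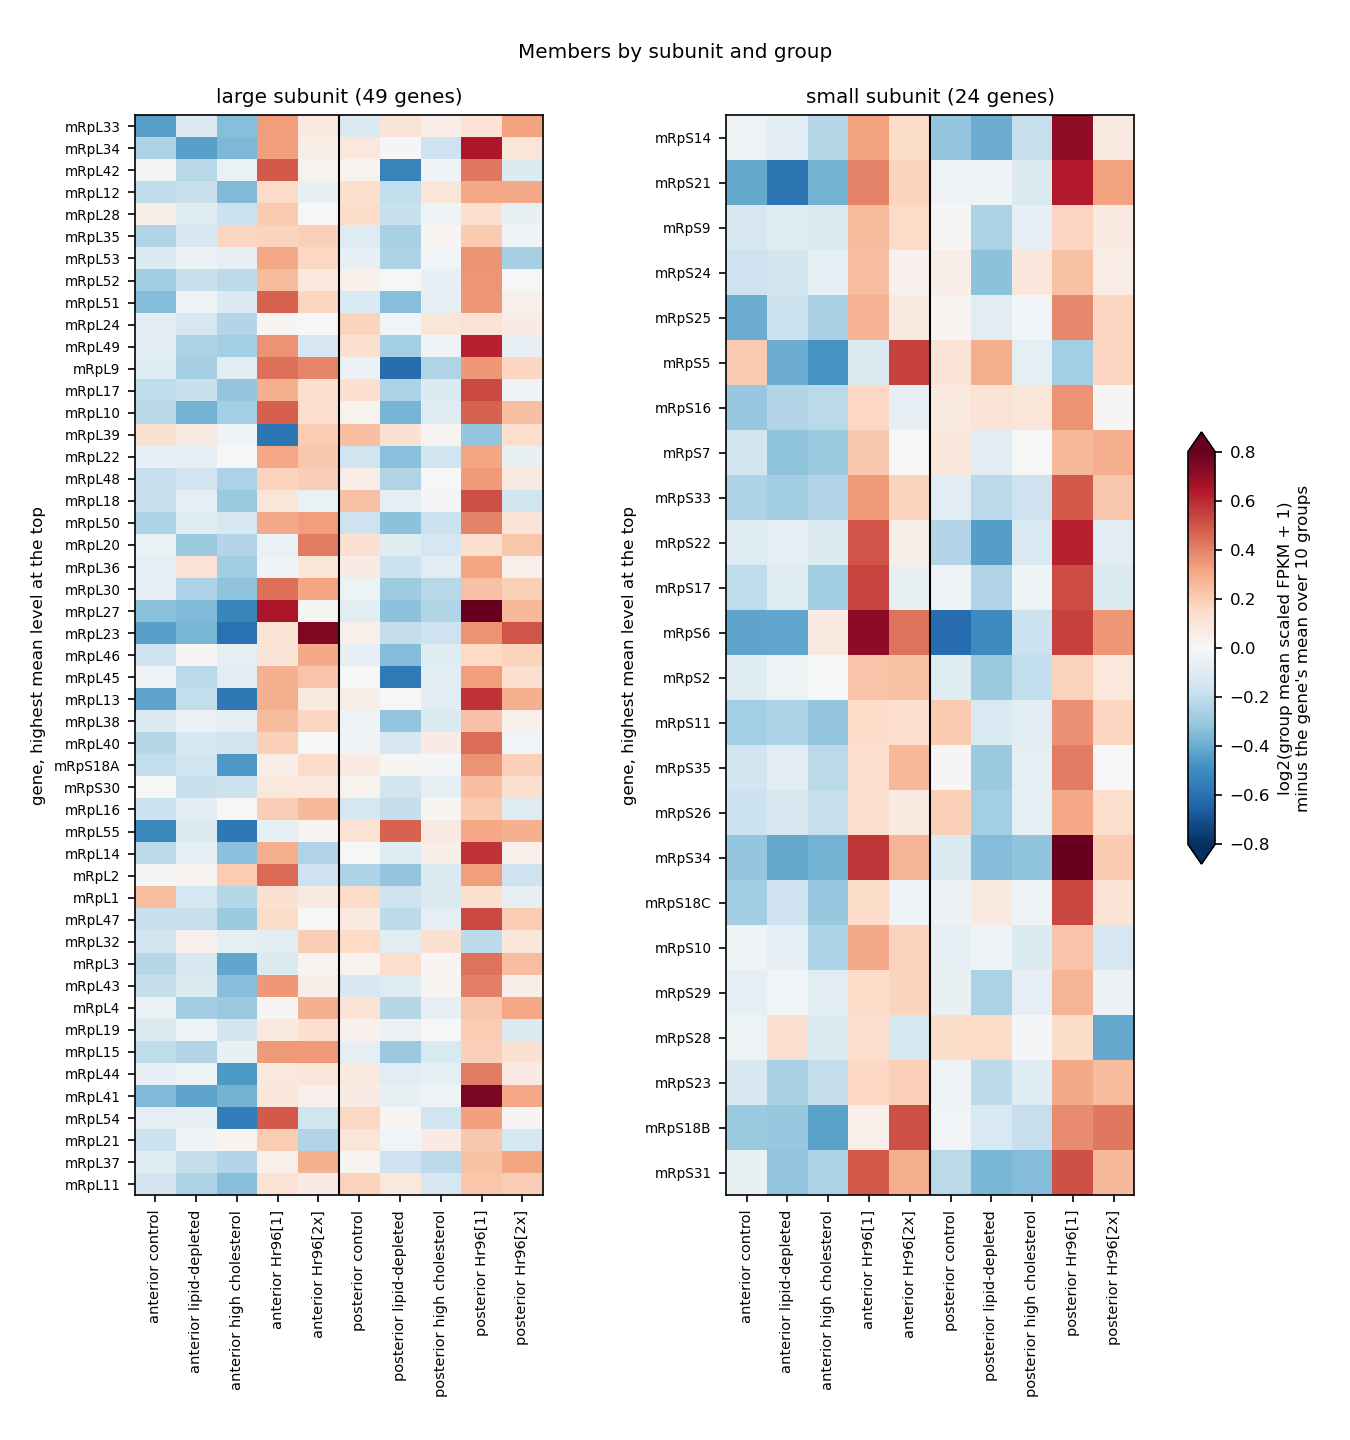
Each row is a member (49 of the large subunit and 24 of the small) and each column 1 of the 10 groups. Colour gives log2(group mean scaled FPKM + 1) minus the mean of that gene over the groups. The Hr96[1] columns are above the gene's mean for most rows and the lipid-depleted and high-cholesterol columns below it, with mRpL39 going the other way in Hr96[1].

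The large and small subunit genes kept a nearly fixed ratio. The summed scaled FPKM of the 49 large-subunit genes divided by that of the 24 small-subunit genes stayed between 2.03 and 2.36 in all 30 libraries. By group it was lowest in Hr96[1], where the anterior mean was 2.096 ± 0.019 and the posterior mean 2.081 ± 0.025, against 2.21 ± 0.10 and 2.29 ± 0.02 in the controls (SD, n = 3). The genes that followed the members' median most closely over the 30 libraries were mRpS11, with an SD of 0.12 around it on the log2 scale, mRpS23 with 0.13, mRpS9 with 0.14 and mRpS35 with 0.14, all of the small subunit. The median of this SD over the members was 0.20.

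The members that followed it least were mRpS5 with an SD of 0.80, mRpL33 with 0.45, mRpL55 with 0.41 and mRpL39 with 0.40. For mRpS5, a small-subunit protein at the entry of the message channel, scaled FPKM was 61.9, 20.5 and 17.9 in anterior Hr96[1] and 58.0, 21.4 and 10.6 in posterior Hr96[1]. In the anterior control it was 59.6, 34.6 and 32.5, and in posterior lipid-depleted 29.3, 61.0 and 44.0. Its spread was within groups, so that none of its comparisons passed the test. The level of mRpL33 ranged from 51.3 to 167 with a replicate SD of 0.53 on the log2 scale, and it also passed no test. The median library held 486.5 implied fragments of mRpS5 and 328 of mRpL33, so their replicate spread was many times counting error.

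The check of the strain labels uses Hr96 itself. Its scaled FPKM was 67.9, 43.4 and 61.2 in the anterior control and 42.1, 40.3 and 33.9 in anterior Hr96[1], without overlap, a log2 difference of -0.54 that did not pass the test (adjusted p = 0.112). Posterior levels were 65.2, 57.8 and 63.1 in the control and 38.1, 33.4 and 27.9 in Hr96[1], a difference of -0.90 (adjusted p = 0.0173). The Hr96[2x] libraries held between 63.8 and 80.3, and neither difference from the control passed the test (0.40, adjusted p = 0.283, and 0.22, adjusted p = 0.669). Its transcript level does not check the label of Hr96[2x]. All differences here and below are log2(scaled FPKM + 1) tested with limma over 8335 genes, with Benjamini-Hochberg adjusted p under 0.05 as the threshold for a call.

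In the anterior midgut of Hr96[1] flies, mitochondrial ribosomal protein genes were higher than in wild type over most of the set. The median difference over the 73 members was 0.39, against 0.01 over all genes tested, and 69 of 73 were above 0. The test called 13 members higher and 1 lower; of all tested genes, 11.9% were called higher and 12% lower. In 48 members every Hr96[1] library was above every control library and in 1 below, where 20.3% and 20.4% of all tested genes showed these patterns. The share of members called higher was thus somewhat above the background, that called lower far under it, and the share without overlap and higher well above it. With single libraries left out the test called 5 to 17 members: 9, 8 and 8 without control replicates 1, 2 and 3, and 17, 7 and 5 without Hr96[1] replicates 1, 2 and 3. On FPKM as deposited, without scaling between libraries, 0 members were called higher and 1 lower; the median of all genes then shifted by -0.28 and the members' median lay 0.32 above it. With replicates 2 and 3 averaged into 1 the count of called members was 2.

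The largest rise was that of mRpS6, a protein at the edge of the small subunit's platform (3L:4364550-4365243). Its scaled FPKM was 21.1, 21.8 and 27.0 in the anterior control libraries and 44.0, 52.1 and 61.8 in the Hr96[1] ones, so the groups were far from overlapping. The mean rose from 23.3 ± 3.2 to 52.6 ± 8.9 (SD, n = 3), a log2 difference of 1.135 with an SE of 0.23 (adjusted p = 0.00119). Next was mRpL27, a large-subunit protein close to the peptidyl transferase centre (2L:4458595-4459638), with 21.1, 22.3 and 25.6 in the control and 35.5, 52.3 and 51.4 in Hr96[1], and a difference of 0.97 (adjusted p = 0.00779). The third, mRpS34 (3L:16348074-16348782), a small-subunit protein without a bacterial counterpart, had 18.5, 20.3 and 23.7 against 35.5, 41.8 and 40.4, a difference of 0.88 (adjusted p = 0.00266). The fourth was mRpS21 at 0.82 (adjusted p = 0.0207), whose control libraries at 45.8, 26.7 and 33.3 spread widely below 69.1, 51.3 and 66.0. Neither mRpS6 nor mRpL27 overlaps another gene; CG4925, which overlaps mRpS34, had a difference of 0.30 that did not pass (adjusted p = 0.286).

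Other members called higher spanned both subunits. In the large subunit they were mRpL51 (0.81), mRpL13 (0.71), mRpL10 (0.70), mRpL15 (0.54) and mRpL9 (0.53), and in the small subunit mRpS17 (0.73), mRpS25 (0.67), mRpS31 (0.55) and mRpS9 (0.37, adjusted p = 0.0497). The protein mRpL10 anchors the stalk, and it rose from 28.1, 27.8 and 32.2 to 43.9, 49.8 and 51.5 (adjusted p = 0.00327). By subunit, 7 of 24 small-subunit genes and 6 of 49 large-subunit genes were called higher, with medians of 0.40 and 0.38, so the medians of the subunits were nearly equal although the shares called were not. Of the 43 genes with a bacterial counterpart 9 were called higher, and of the 30 without it 4, with medians of 0.38 and 0.40. Of the 3 stalk genes 1 was called higher, and of the 6 genes at the peptide exit tunnel none, with all 6 above 0.

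The member that fell was mRpL39, a large-subunit protein without a bacterial counterpart, whose human homolog is related to threonyl-tRNA synthetase (3L:14997981-14999666). Its scaled FPKM was 34.0, 38.9 and 38.3 in the anterior control and 26.3, 20.6 and 20.5 in Hr96[1]. All 3 Hr96[1] libraries were lower than all controls, and the mean fell from 37.1 ± 2.7 to 22.4 ± 3.3 (SD, n = 3), a log2 difference of -0.71 with an SE of 0.18 (adjusted p = 0.00738). The overlapping gene Zip71B, on the other strand, was at 1.24, which did not pass the test (adjusted p = 0.171).

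Among members with no overlapping gene, 3 of 30 were called higher in anterior Hr96[1] and the median difference was 0.35, against 10 of 43 and 0.42 for those with an overlap. The genes that kept their call when each of the 6 libraries was left out in turn were mRpS6, mRpL27, mRpS34, mRpL10 and mRpL39; the call of mRpS21 was lost in 4 of the 6.

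Posterior midguts of Hr96[1] flies showed the same direction with more spread. The median difference was 0.32 against 0.00 over all genes, and 66 of 73 members were above 0. Of the members 5 were called higher and 1 lower, where 5.03% and 7.89% of all tested genes were. The share called higher was thus close to the background and that called lower far under it. The groups did not overlap in 29 members that were higher and in 1 that was lower, where 14.8% and 15.5% of all genes did so. Much of this rested on the third posterior Hr96[1] library, the library with the highest members' median of all 30 and with the fewest genes above 0, 9923, where the next lowest had 10394. Without it the median was 0.13, 57 members were above 0, and 2 were called higher and 1 lower. On deposited FPKM, and likewise with replicates 2 and 3 averaged or with the compared groups fitted alone, 1 member was called.

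Here mRpS6 went from 16.8, 23.0 and 21.4 in the control to 33.7, 37.0 and 69.0 in Hr96[1], a difference of 1.09 (adjusted p = 0.00263). The levels of mRpL27 were 24.1, 27.6 and 30.5 against 44.9, 46.5 and 78.4 (0.98, adjusted p = 0.011), and those of mRpS34 were 22.2, 22.8 and 27.5 against 36.1, 41.6 and 63.0 (0.90, adjusted p = 0.0037). In each of the 3 genes even the lower Hr96[1] libraries were above all controls. The small-subunit gene mRpS22, whose protein lacks a bacterial counterpart, went from 31.0, 30.2 and 27.6 to 48.2, 46.5 and 67.9 (0.83, adjusted p = 0.0215), and CG33213, which overlaps it, had -0.09 (adjusted p = 0.817). The fifth gene called higher, mRpS31, is another small-subunit member without a bacterial counterpart, and its libraries were the tightest: 11.1, 11.3 and 11.8 against 19.9, 18.7 and 19.9 (0.72, adjusted p = 0.0156). By subunit, 4 of 24 small-subunit genes and 1 of 49 large-subunit genes were called higher.

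The fall of mRpL39 was again seen in the posterior midgut, from 38.3, 40.3 and 42.4 to 26.7, 22.8 and 31.7, without overlap (-0.57, adjusted p = 0.0405), and Zip71B again had a positive value that did not pass (1.137, adjusted p = 0.268). In all, 5 members (mRpS6, mRpL27, mRpS34, mRpS31 and mRpL39) were called in both regions, the same way, which is 35.7% of those called in the anterior and 83.3% of those called in the posterior midgut. Of all tested genes 8.73% were called the same way in both regions, a larger share than that of the members, and same-numbered Hr96[1] libraries of the regions deviated together, so the regions are not independent. With single libraries left out of the posterior comparison, mRpS6 (highest adjusted p = 0.0288) and mRpS34 (0.0409) kept their calls. Without posterior Hr96[1] replicate 3 the adjusted p of mRpL27 was 0.0948 and that of mRpS31 0.0539, and the call of mRpL39 was lost in 5 of 6 leave-outs.

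**Figure D3:**
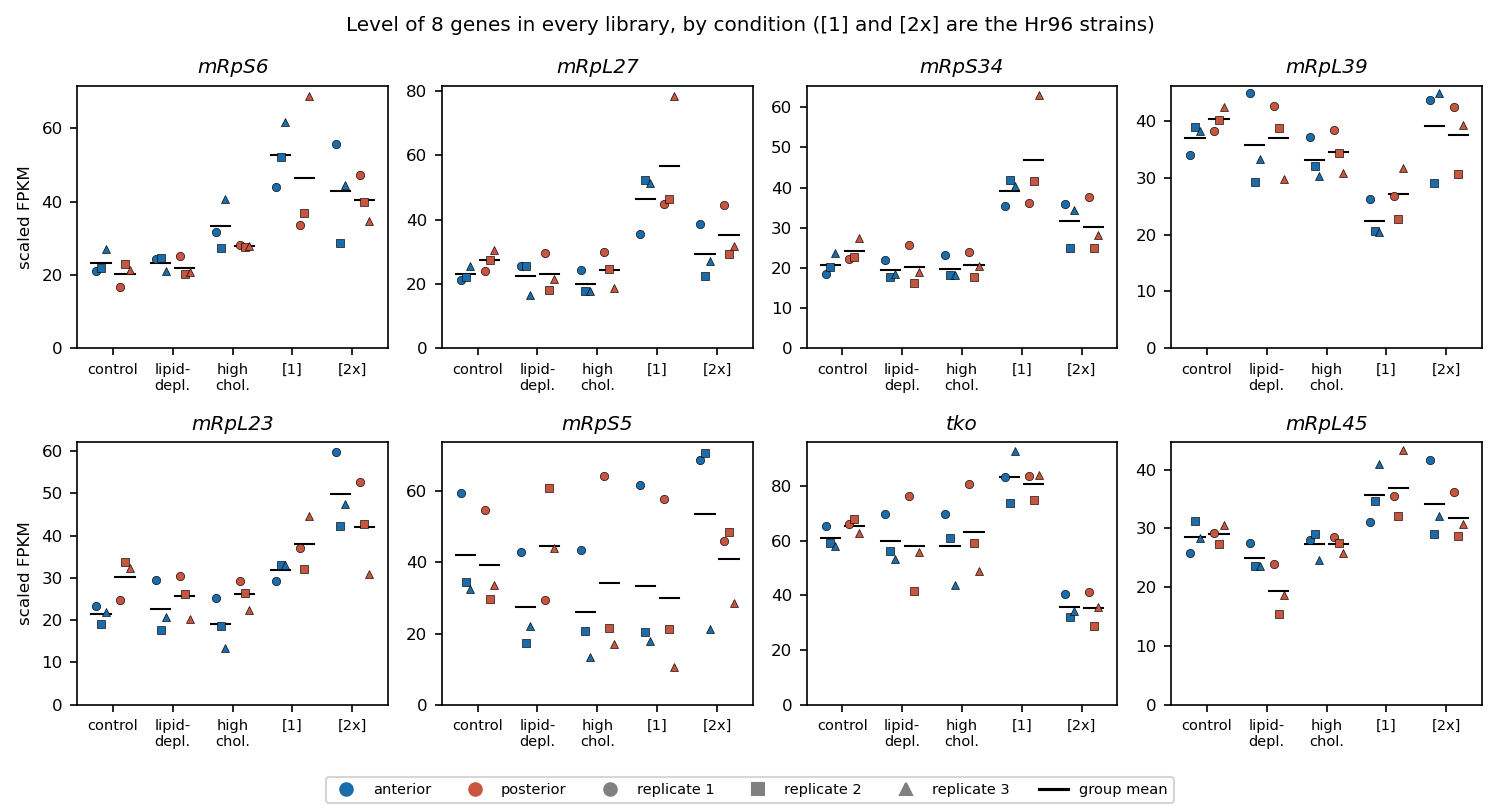
Scaled FPKM (vertical axis) of 8 genes in every library, by group (horizontal axis); marker shape gives the replicate. In mRpS6, mRpL27 and mRpS34 the Hr96[1] libraries lie above the controls in both regions, in mRpL39 they lie below, mRpL23 is highest in anterior Hr96[2x] at 42.4 to 59.8, mRpS5 spreads within groups, and tko is lowest in Hr96[2x].

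In Hr96[2x] the anterior midgut had fewer called members and the posterior almost none. In the anterior midgut the median difference was 0.26, 65 of 73 members were above 0, and 6 were called higher and 0 lower, close to the background of 8.61% of all genes called higher and below the 9.77% called lower. In 21 members all Hr96[2x] libraries were above all controls, where 17.8% of all genes were. The anterior Hr96[2x] replicates differed widely: without replicate 1 the count was 1 and the median 0.18, without replicate 2 the count was 9 and the median 0.45. The count was 2, 2 and 3 without anterior control replicates 1, 2 and 3, and 2 without Hr96[2x] replicate 3. At an unadjusted p under 0.05, 16 members passed, and on deposited FPKM 0 were called by the adjusted p.

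The largest rise in this strain was that of mRpL23, a large-subunit protein at the rim of the peptide exit tunnel (3L:2372844-2373704). Its scaled FPKM was 23.4, 19.0 and 22.02 in the anterior control and 59.8, 42.4 and 47.5 in Hr96[2x], and the mean rose from 21.5 ± 2.2 to 49.9 ± 9.0 (SD, n = 3). The difference of 1.17 (SE 0.22, adjusted p = 0.000789) kept its call in every leave-out, with an adjusted p of at most 0.00727. Posterior levels were 24.7, 33.7 and 32.5 against 52.7, 42.9 and 30.8, which overlap (0.44, adjusted p = 0.241). In anterior Hr96[1] it was 29.4, 33.0 and 32.9, above the same controls (0.55, adjusted p = 0.0783). The gene CG8993, which overlaps mRpL23 on the other strand, had 0.37 in anterior Hr96[2x] (adjusted p = 0.207).

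The others called in anterior Hr96[2x] were mRpS6 (0.81, adjusted p = 0.0166), mRpS18B (0.78, adjusted p = 0.0127), mRpS34 (0.58, adjusted p = 0.046), mRpL15 (0.53, adjusted p = 0.0439) and mRpL9 (0.49, adjusted p = 0.04). The level of mRpS18B, a small-subunit protein of the S18 family, was 14.1, 14.8 and 15.9 in the control and 32.2, 19.2 and 29.6 in Hr96[2x], and its adjusted p without Hr96[2x] replicate 1 was 0.0731. Calls of mRpS6 were lost in 4, of mRpS34 and mRpL15 in 5 and of mRpL9 in 6 of the 6 leave-outs. Only mRpS6 was called in posterior Hr96[2x], with 16.8, 23.0 and 21.4 in the control and 47.3, 39.9 and 34.6 in Hr96[2x] (0.96, adjusted p = 0.00755, at most 0.0494 with a library left out). There the median over the members was 0.09, 48 of 73 were above 0, and 4.13% of all genes were called higher and 7.08% lower. The member with the next smallest p was mRpS28, at 21.2, 23.9 and 26.0 against 19.5, 14.1 and 14.0 (-0.56, adjusted p = 0.135).

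The strains were each compared with the same control libraries, so likeness between their differences is no separate evidence. Set against each other directly, a comparison added after the data were seen, the median difference over the members (Hr96[2x] minus Hr96[1]) was -0.13 for anterior and -0.25 for posterior libraries. In the anterior midgut mRpL39 was called higher in Hr96[2x], at 43.7, 29.1 and 44.9 against 26.3, 20.6 and 20.5 (0.76, adjusted p = 0.00778), and mRpL54 lower (-0.65, adjusted p = 0.047), where 9.59% of all genes were called. Of the posterior values, mRpL18 (-0.64, adjusted p = 0.0435) and mRpS17 (-0.61, adjusted p = 0.0496) were called lower, where 10.7% of all genes were called, and no member was called without posterior Hr96[1] replicate 3. The mRpL39 difference is thus tested between the strains in the anterior midgut, and in the posterior it was 0.45 without passing (adjusted p = 0.113).

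A pair of small-subunit genes escapes the naming rule because the fly genes carry other names. The gene tko (technical knockout, X:2442313-2443976) encodes the S12 protein of the decoding centre, and a mutation in it gives bang-sensitive flies that seize after a mechanical shock. Its scaled FPKM was 65.3, 59.1 and 58.1 in the anterior control and 40.4, 32.2 and 34.1 in anterior Hr96[2x], and 65.9, 67.8 and 62.7 in the posterior control and 41.0, 28.7 and 35.7 in posterior Hr96[2x]. The Hr96[2x] libraries were below all controls in both regions, with differences of -0.76 (SE 0.20, adjusted p = 0.0102) and -0.89 (adjusted p = 0.00443). In Hr96[1] it was 83.2, 73.8 and 92.7 in the anterior and 83.5, 74.9 and 83.8 in the posterior midgut, above all controls, though neither difference passed the test (0.44, adjusted p = 0.114, and 0.30, adjusted p = 0.363). The lower levels of tko in Hr96[2x] kept their call in every leave-out, with an adjusted p of at most 0.0451 and 0.034, and lost it when replicates 2 and 3 were averaged into 1 (0.0985 and 0.0914). The gene bonsai, for the S15 protein, passed only in the comparison of regions over all conditions, where it was 0.26 higher in the posterior midgut (adjusted p = 0.02).

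**Figure D4:**
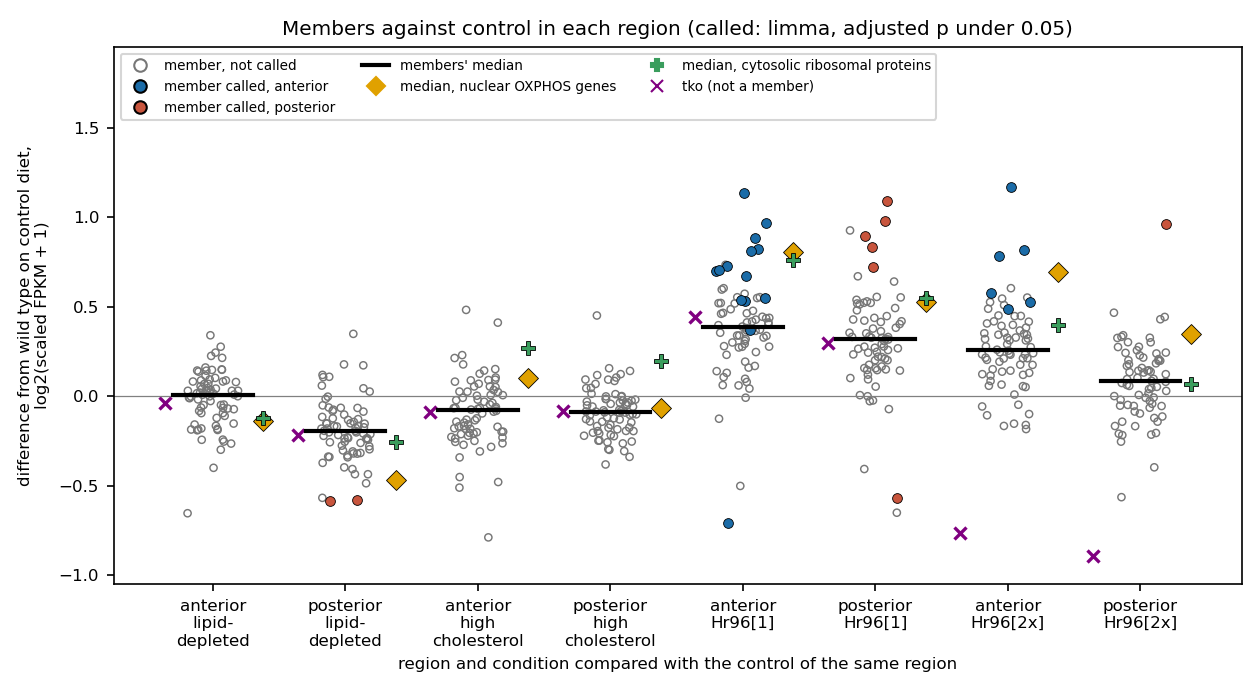
The log2 difference from the control of the same region (vertical axis) for each of the 73 members in 8 comparisons (horizontal axis); filled points passed the test, bars give the members' median, diamonds the median of the nuclear oxidative phosphorylation genes, plus signs that of the cytosolic ribosomal protein genes and the cross tko. The members' median is 0.39 in anterior and 0.32 in posterior Hr96[1] and between -0.19 and 0.01 in the 4 diet comparisons.

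The lipid-depleted diet gave calls only in the posterior midgut, and only 2. There the median over the members was -0.19 against -0.02 over all genes, 9 of 73 were above 0, and 0 members were called higher and 2 lower, where 1.39% of all genes were called higher and 2.44% lower. The share of members called was thus close to the background. The gene mRpL45 (3R:22618492-22619826), whose mammalian homolog sits at the exit tunnel and ties the ribosome to the inner membrane, went from 29.2, 27.3 and 30.7 to 23.9, 15.4 and 18.7, without overlap (-0.58, adjusted p = 0.0305). The gene mRpL9, for an elongated protein of the large subunit, went from 34.6, 34.0 and 36.2 to 29.0, 21.1 and 19.9 (-0.58, adjusted p = 0.0464). The gene FK506-bp1, which overlaps mRpL9, was at -0.03 (adjusted p = 0.985). Both calls were lost in 5 of the 6 leave-outs, whenever any control library or lipid-depleted replicate 2 or 3 was left out, so these falls are at the limit of what 3 libraries could show.

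For the anterior midgut of lipid-depleted flies the median was 0.01, 38 of 73 members were above 0, and limma called 0 members where it called 3.17% of all genes, with 1 member at an unadjusted p under 0.05. That member was mRpL1, a large-subunit protein of the mobile stalk by the exit site, at 29.8, 29.0 and 34.1 in the control and 28.1, 20.3 and 21.7 on the diet (-0.40, adjusted p = 0.254). The next was mRpS31 (-0.30, adjusted p = 0.575). The region dependence of the diet response, the posterior difference minus the anterior one, had a median of -0.19 over the members, and limma called 0 of them where it called 0.576% of all genes, with 0 at an unadjusted p under 0.05. The smallest p there belonged to mRpL45 (-0.40), mRpL9 (-0.42) and mRpL46 (-0.46), all with an adjusted p of 0.966. That the calls fell in the posterior midgut is therefore not a shown difference between the regions.

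On the high-cholesterol diet no member passed the threshold with all libraries and scaled values. In the anterior midgut the median was -0.08, 24 of 73 members were above 0, and limma called 0 members where it called 3.52% of all genes, with 3 members at an unadjusted p under 0.05. They were mRpL1, at 23.8, 23.8 and 18.4 on the diet (-0.48, adjusted p = 0.124), mRpL54, at 16.3, 17.3 and 17.2 in the control and 15.97, 8.95 and 10.8 on the diet (-0.51, adjusted p = 0.191), and mRpS6. The last had 31.7, 27.3 and 40.8 on the diet, above all controls (0.48, adjusted p = 0.303). In the same anterior comparison 5 members were called lower on FPKM as deposited, 7 lower with replicates 2 and 3 alone and 3 lower without high-cholesterol replicate 1. The share of all tested genes called in these settings is not given, so the counts are not set against a background. As deposited, the members' median level was 4.76 in the anterior control and 4.15 on the diet, where scaled values gave 4.80 and 4.73. In the posterior midgut the median was -0.09, 15 of 73 were above 0, and limma called 0 members where it called 0.876% of all genes, with 0 at an unadjusted p under 0.05. Again mRpS6 had the smallest p, with 28.3, 27.7 and 27.9 on the diet (0.45, adjusted p = 0.564), followed by mRpS11 (-0.30, adjusted p = 0.682). Region dependence of this response had a median of -0.01, 0 calls where 0.024% of all genes were called and 0 members at an unadjusted p under 0.05, with the smallest p for mRpL43 (0.37), mRpS11 (-0.26) and mRpL35 (-0.29), all with an adjusted p of 1.0.

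The spread between replicate 1 and the other libraries bears on all diet values. With replicates 2 and 3 of every group alone, an alternative chosen after the data were seen, the median over the members was -0.16 and -0.43 on the lipid-depleted diet (anterior, posterior) and -0.26 and -0.28 on the high-cholesterol diet. In anterior Hr96[1] it was 0.42 and in posterior Hr96[1] 0.31 in the same libraries, close to the values with all 3. The posterior value still rested mostly on replicate 3. Between same-numbered posterior libraries, the members' median differed by 0.081 for replicate 2 and 0.626 for replicate 3.

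Region dependence of the strain differences was also not found by limma. For Hr96[1] the members' median was -0.04, and 0 members were called where 0.408% of all genes were, with 0 at an unadjusted p under 0.05; the smallest p belonged to mRpL32 (-0.47) and mRpL54 (-0.41), both with an adjusted p of 0.86, and mRpL51 (-0.39, adjusted p = 0.903). For Hr96[2x] the median was -0.19, and 0 members were called where 0.36% of all genes were, with 1 at an unadjusted p under 0.05. That was mRpL23, whose difference was lower by 0.73 in the posterior midgut (adjusted p = 0.763), followed by mRpL18 (-0.52) and mRpL17 (-0.49), both with an adjusted p of 1.0.

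Between the regions a smaller share of members than of all tested genes was called. Averaged over the 5 conditions, 45.2% of all tested genes were called between posterior and anterior midgut, 21.8% higher and 23.4% lower in the posterior, while 9 of 73 members were called higher and 0 lower. The members' median was 0.09, with 50 of 73 above 0. The count depended on the fit: with the replicate number as a block within conditions 24 were called higher and 4 lower, where 58.3% of all genes were called, with a block over all groups 14, with replicates 2 and 3 averaged 1, and with single libraries left out 5 (without anterior high-cholesterol replicate 3 or posterior Hr96[2x] replicate 1) to 18 (without anterior high-cholesterol replicate 1). The largest was mRpL55, a large-subunit protein without a bacterial counterpart, with a mean of 31.1 ± 7.8 in the posterior and 21.9 ± 6.9 in the anterior libraries (SD, n = 15 each), a difference of 0.52 (adjusted p = 0.00505). Wild-type flies on control food had 18.2, 18.4 and 16.9 in the anterior and 21.1, 30.7 and 32.4 in the posterior midgut, which did not overlap.

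Next came mRpL41, another large-subunit protein without a bacterial counterpart, at 0.40 (adjusted p = 0.00558), then mRpL3, a core protein that reaches toward the peptidyl transferase centre, at 0.36 (adjusted p = 0.00312), and mRpS21 at 0.33 (adjusted p = 0.02). The gene CG11808, which overlaps mRpL41, was higher by 0.48 (adjusted p = 0.00184), and reads of any stretch they share cannot be told apart. Neither mRpL55 nor mRpL3 overlaps another gene. The other called members were mRpL13, mRpS16, mRpS7, mRpS11 and mRpL24, with 0.33 to 0.18. On the values as deposited, without scaling between libraries, all 73 were called higher in the posterior midgut; the median over all tested genes was itself 0.52 there, and the members' median lay 0.16 above it, against 0.09 with scaling. The direction relative to other genes was thus the same on both scales, and the count was not. How many of all tested genes were called as deposited is not given, so the count of 73 has no background.

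Within single conditions limma called 0 members between the regions, where it called 14.7% of all genes on the control diet, 12.3% on the lipid-depleted and 17.4% on the high-cholesterol diet, 14% in Hr96[1] and 18.9% in Hr96[2x]. On FPKM as deposited the counts were 4, 1, 57, 57 and 47 in the same order, where the median of all genes was itself shifted upward by 0.35 to 0.65. The share of all tested genes called on that scale is not given, so these counts are not set against a background. At an unadjusted p under 0.05 there were 3, 3, 5, 2 and 0 members. The medians were 0.16, -0.01, 0.17, 0.10 and -0.04 in the same order. On the control diet the smallest p belonged to mRpS11, at 26.9, 23.5 and 27.9 in the anterior and 31.2, 36.6 and 42.6 in the posterior midgut (0.47, adjusted p = 0.0774), and to mRpL13 (0.47, adjusted p = 0.152), whose overlapping neighbour CG10602 was higher by 0.89 (adjusted p = 0.0026).

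In the other conditions the pairs of genes with the smallest p were mRpL45 (-0.37, adjusted p = 0.125) and mRpS21 (0.58, adjusted p = 0.143) on the lipid-depleted diet, and mRpL13 (0.51, adjusted p = 0.0959) and mRpL55 (0.78, adjusted p = 0.109) on the high-cholesterol diet. In Hr96[1] they were mRpL3 (0.55, adjusted p = 0.0853) and mRpL41 (0.61, adjusted p = 0.124), and in Hr96[2x] mRpL16 (-0.35, adjusted p = 0.218) and mRpL12 (0.44, adjusted p = 0.26). Same-numbered libraries of the regions deviated together on the lipid-depleted diet and in both strains. With the replicate number as a block within these conditions, the calls were 1 higher and 5 lower on the lipid-depleted diet, 2 higher and 0 lower in Hr96[1] and 1 higher and 1 lower in Hr96[2x]. With that block 28.4%, 27.4% and 32.5% of all tested genes were called in the same order, so the members' counts were far under the background.

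The nuclear genes of the oxidative phosphorylation complexes had larger median differences than the members. Of 73 nuclear genes of these complexes that were tested, 49 were called higher and 0 lower in anterior Hr96[1], with a median of 0.81. The counts higher were 17 (median 0.53) in posterior Hr96[1], 34 (median 0.69) in anterior Hr96[2x] and 2 (median 0.35) in posterior Hr96[2x], with 0 lower in each. Of all tested genes 11.9%, 5.03%, 8.61% and 4.13% were called higher, from anterior Hr96[1] on in the same order. Examples in anterior Hr96[1] were SdhC, an anchor subunit of complex II, at 1.22 (adjusted p = 0.000598) and RFeSP, the iron-sulfur protein of complex III, at 1.21 (adjusted p = 0.000177). In anterior Hr96[2x] they were CG7712, a complex I subunit, at 1.62 (adjusted p = 3.77e-06), and the complex III gene ox at 1.13. In posterior lipid-depleted midgut 0 were called higher and 3 lower, with a median of -0.47, namely CG18624 (-1.32, adjusted p = 0.0142) and NDUFA8 (-0.77, adjusted p = 0.0356) of complex I and CG4769 of complex III (-0.66, adjusted p = 0.0313). Of all tested genes 1.39% were called higher and 2.44% lower there. In all of these comparisons the median of the complexes lay further from 0, in the same direction, than that of the ribosomal protein genes; the difference between the lists was not tested.

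The 79 tested genes for proteins of the cytosolic ribosome had a median of 0.76 in anterior Hr96[1], with 47 called higher and 0 lower, and 0.55 in posterior Hr96[1], with 5 higher. In Hr96[2x] the medians were 0.40 (5 higher) and 0.07 (1 higher), anterior and posterior. Between the regions the lists parted: over all conditions 75 of the 79 cytosolic ribosomal protein genes were called lower in the posterior midgut, with a median of -0.54, where the mitochondrial ones had 9 called higher and a median of 0.09. Of all tested genes 21.8% were called higher and 23.4% lower in that comparison. The cytosolic genes are highly expressed, and on the high-cholesterol diet their anterior median was 0.27 with 0 called, while that of the members was -0.08.

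Counts for genes that act around the mitochondrial ribosome, and for the lists after them, are to be read against all tested genes. Of these, 11.9% were called higher and 12% lower in anterior Hr96[1], and 5.03% and 7.89% in posterior Hr96[1]. In Hr96[2x] the shares were 8.61% and 9.77% (anterior) and 4.13% and 7.08% (posterior). Of 12 translation factors 0 were called higher and 1 lower in anterior Hr96[1], namely CG12736, listed as a mitochondrial elongation factor Tu paralog (-0.77, adjusted p = 0.0184), and 1 higher in posterior Hr96[1], the elongation factor G gene ico (0.56, adjusted p = 0.0482). Of 15 mitochondrial aminoacyl-tRNA synthetase genes, Slimp, a paralog of seryl-tRNA synthetase, fell in every strain comparison. It was at 13.4 ± 2.1 in the anterior control, 5.61 ± 0.48 in anterior Hr96[1] and 4.86 ± 1.13 in anterior Hr96[2x] (SD, n = 3), with log2 differences of -1.11 (adjusted p = 3.67e-05) and -1.30 (adjusted p = 5.69e-06). Posterior differences were -1.20 (adjusted p = 2.01e-05) and -1.51 (adjusted p = 7.24e-07). The alanyl-tRNA synthetase gene Aats-ala-m also fell in anterior Hr96[1] (-0.50, adjusted p = 0.00576), and no synthetase was called higher in the strains.

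Of 11 genes for copying and transcribing mitochondrial DNA, tam, the catalytic subunit of DNA polymerase gamma, fell in anterior Hr96[1] (-1.26, adjusted p = 2.28e-05), posterior Hr96[1] (-0.56, adjusted p = 0.0401) and anterior Hr96[2x] (-0.63, adjusted p = 0.0168), and no other was called in these comparisons. Of 13 protein import genes 2 rose in anterior Hr96[1], Tom7 of the outer-membrane translocase (0.79) and the intermembrane-space chaperone gene Tim10 (0.76). Of the 13 genes encoded in mitochondrial DNA 1 was called in anterior Hr96[1], mt:ATPase8 (3.92, adjusted p = 0.0141), in poly(A) libraries where such transcripts are unevenly captured. Of 14 nucleolar genes of cytosolic ribosome assembly, Ns1 rose in anterior Hr96[1] (0.67) and pit (0.75) and Ns1 (0.64) in anterior Hr96[2x].

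Known regulators of mitochondrial and ribosomal genes were a list of 10. In anterior Hr96[1] 3 rose, Max (1.00), foxo (0.95) and ERR (0.76), and in anterior Hr96[2x] the same 3 genes were called, with 0.80, 0.85 and 0.67; these comparisons share their controls. The nuclear receptor gene ERR was also higher in anterior libraries of the lipid-depleted (1.00) and the high-cholesterol diet (0.97), where no member was called. The gene for Myc (dm) was at -0.52 (adjusted p = 0.611) and -0.37 (adjusted p = 0.775) in anterior and posterior Hr96[1]. The coactivator gene srl, the fly PGC-1 homolog, was at 0.07 (adjusted p = 0.881) in anterior Hr96[1], Ets97D, homolog of the GABPA subunit of NRF-2, at 0.08 (adjusted p = 0.72), ewg, homolog of NRF-1, at 0.05 (adjusted p = 0.912), and Dref at -0.06 (adjusted p = 0.712). None of these 5 was called in either region of Hr96[1].

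Other cell types contribute RNA to a dissected midgut, and fewer cells of a type and less RNA per cell cannot be told apart in these bulk libraries. The enterocyte markers nub, Myo31DF, mex1 and GATAe were present in every library, with a summed scaled FPKM of 577 to 1505, and their sums were lower in Hr96[1] without overlap. They were 848, 673 and 693 in anterior Hr96[1] against 1505, 967 and 943 in the anterior control, and 736, 617 and 577 in posterior Hr96[1] against 1189, 976.5 and 973 in the posterior control. Of the 4 genes 0 were called in the anterior and 2 lower in the posterior comparison. Over all libraries the mean level was 675 for mex1, 94.5 for nub, 108 for Myo31DF and 50.7 for GATAe. The enterocyte sums were thus mostly mex1 and do not describe the 4 genes as a whole. In Hr96[2x] these sums were 857 to 1129 (anterior) and 841 to 1204 (posterior), overlapping the controls in both regions. Visceral muscle, which wraps the gut and is rich in mitochondria, moved with the Hr96[1] result: all 8 sarcomere genes listed were above 0 in both regions, 5 called higher in the anterior (median 1.19) and 2 in the posterior midgut (median 1.06). Their summed scaled FPKM was 218 to 280 in the anterior control and 490 to 589 in anterior Hr96[1], and 349 to 434 in the posterior control and 783 to 989 in posterior Hr96[1], without overlap. In Hr96[2x] the sums were 147 to 439 in the anterior and 260 to 863 in the posterior midgut, 0 of the 8 were called in either region, and their medians were -0.18 and 0.20, where the members' medians were 0.26 and 0.09.

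On the lipid-depleted diet all 8 sarcomere genes were below 0 in both regions (medians -0.91 and -0.76), with 0 called, and their sum was 110 to 128 in the anterior and 170 to 347 in the posterior midgut. Between regions, 8 of 8 were higher in the posterior midgut over all conditions. The part of muscle RNA in the members' levels was not tested. Malpighian tubule markers were above 0 in 4 of 4 in both regions of Hr96[1] (medians 1.44 and 1.90, 0 called). Their sum was 276, 0.983 and 0.501 in anterior Hr96[1] and 8.29, 0.881 and 0.634 in the anterior control, so replicate 1 alone was high there, and 33.0 to 288 in posterior Hr96[1] and 1.11 to 21.1 in the posterior control; their defining gene Uro was listed at 0 in 5 of the 30 libraries. Of 6 fat body markers 1 was called lower in anterior and 2 in posterior Hr96[1] (medians -0.71 and -1.76). Their sums in the control were 1636, 218 and 172 (anterior) and 1949, 126 and 175.5 (posterior), so that replicate 1 alone was high. In Hr96[1] they were 644, 203 and 204 (anterior) and 507, 30.0 and 34.1 (posterior), and the groups overlapped in both regions. Ovary markers other than gcl were under the level for testing, each with a mean below 0.5. The part of these cell types in the results was not tested either.

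Of the remaining lists, the 11 cell-cycle genes had 2 called lower in anterior Hr96[1] and 0 called in posterior Hr96[1], and the 7 stem cell and enteroblast genes 1 called higher and 0 called in the same order. The 6 enteroendocrine genes had 1 called higher in each, the 3 posterior regional genes 0 and 1 (lower), and the copper cell gene Vha100-4 was called higher in anterior Hr96[1] (3.26). In Hr96[2x] the enteroendocrine genes had 2 called higher in the anterior and 4 in the posterior comparison. Their summed scaled FPKM was 153 to 182 against 63.5 to 121 in the anterior control and 857 to 1092 against 189 to 311 in the posterior control, without overlap. The posterior regional genes had 1 called higher in each region of Hr96[2x], with a sum of 315 to 954 against 45.5 to 58.4 in the anterior control and 315 to 2283 against 141 to 166 in the posterior control. These genes were cad, exex and mag, whose highest levels in any library were 59.7, 79.7 and 2207. The large sums were thus mostly mag and do not describe the list as a whole. The part of these shifts in the members' levels was not tested. Between the regions of the control diet the regional genes had 2 called higher and 1 lower in the posterior midgut, with a median of 5.24. That 1 gene went against the name of the list. Their sum also ran from 119 to 1006 in the posterior high-cholesterol libraries. The list is thus not a clean marker of region.

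Over the 8 diet and strain comparisons 18 of the 73 members were called at least once and 55 never, where 40.1% of all tested genes were called at least once, a larger share than that of the members. A member that was not called is not shown to be level between the groups. With 3 libraries a group and a median replicate SD of 0.28, the SE of a single difference was 0.16 to 0.25 for the members called in anterior Hr96[1] apart from mRpS9 (0.14). Members that were not called could vary more. The replicate SD was 0.79 for mRpS5 and 0.53 for mRpL33, which passed no test.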

How the data were processed

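Gene-level FPKM tables, 1 per library, were made by the authors with bcl2fastq 2.17.1.14, Bowtie2 2.2.9, TopHat2 2.1.1 and Cufflinks 2.2.1 on dm6 (BDGP6), per the submitters' processing notes; the deposited tables also hold upper and lower confidence limits of each FPKM, per the file headers. Nothing used here says how the authors assigned reads shared between overlapping genes.

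Deposited FPKM values were scaled between libraries by median-of-ratios factors over 8584 genes (anterior 0.537 to 1.20, posterior 1.03 to 1.45) and used as log2(scaled FPKM + 1). The 10 most abundant genes took 16.6% to 38.1% of anterior FPKM and 10.3% to 17.3% of posterior FPKM. Rows with a failed estimate (103 genes) were left out. Genes with a mean of at least 1 (8335) were fitted with limma 3.58.1 (R 4.3.3, trended variance) on 10 group means with 20 residual degrees of freedom. Total counts are not in the tables. Fragments per gene were inferred from the width of the confidence limits, and relative depth from 6813 genes ran from 0.792 to 1.28. Tables and plots were made with Python 3.11.15, pandas 2.3.3, numpy 2.4.6 and matplotlib 3.10.9.

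Whether replicate numbers pair the regions was checked by correlating deviations from group means. Every same-numbered pair exceeded 0.1 on the lipid-depleted diet (0.2 to 0.388), in Hr96[1] (0.297 to 0.521) and in Hr96[2x] (0.205 to 0.271), from the data and not the labels.

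Named genes were tko and bonsai, the 4 highest and 4 lowest members, up to 4 called members each way per comparison (or the 2 with the smallest p), the 3 with the smallest p for each region dependence, the 4 closest to and 4 farthest from the members' median, called genes of the context lists, 6 regulators and Hr96. The members and gene lists were chosen with earlier results of these data known. Of 73 members 71 were found in the BDGP6 annotation at the same coordinates. Alternatives were the scaling, the pseudocount, the filter, the samples in the fit, replicate blocks and leaving out libraries. The fit was tested on 20 simulated data sets, with 200 of 8335 genes changed in the anterior lipid-depleted group. It recovered 15.1% of changes of 0.5 on the log2 scale, 61.6% of changes of 1 and 90.2% of changes of 2. Of the calls 5.18% were false. Most changes of 0.5 were thus missed.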

Additional observations from a re-analysis of the deposited data

How the results depend on the processing

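Over all alternatives 260 counts of called members stayed within 1.5 times of the count reported, 38 were lower and 29 higher, and of the values of named genes 2921 kept their direction and side of the threshold, 784 fell short of it, 31 newly passed and 12 changed sign. The share of all tested genes called is given above only for the replicate block within conditions. The other counts in this section are not set against a background. Without scaling between libraries (FPKM as deposited) the counts were 1 in anterior Hr96[1] (the fall), 1 in posterior Hr96[1], 0 in anterior and 0 in posterior Hr96[2x], 0 in posterior lipid-depleted and 5 (all lower) in anterior high-cholesterol; between regions they were 4 (control), 1 (lipid-depleted), 57 (high-cholesterol), 57 (Hr96[1]), 47 (Hr96[2x]) and 73 (all conditions). On that scale the median of all tested genes shifted by -0.28 in anterior Hr96[1], where the members lay 0.32 above it, and by 0.35 to 0.65 between regions within conditions. Quantile normalization gave 9 in anterior Hr96[1] and 3 in anterior Hr96[2x]. Without the filter there were 1 (posterior lipid-depleted) and 3 (anterior Hr96[2x]), and a pseudocount of 5 gave 1 in posterior lipid-depleted. Compared groups alone gave 1 in posterior Hr96[1], 0 in posterior lipid-depleted, 2 in anterior Hr96[2x] and 1 between control regions. Replicates 2 and 3 averaged gave 2 and 1 in anterior and posterior Hr96[1], 0 in posterior lipid-depleted, 2 in anterior Hr96[2x] and 1 between regions. Replicates 2 and 3 alone gave 7 (all lower) in anterior high-cholesterol, 1 in anterior Hr96[2x], and 3, 1, 3, 1 and 14 between regions (control, lipid-depleted, high-cholesterol, Hr96[1], all conditions).

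With the replicate number as a block over all groups, counts were 1 in posterior lipid-depleted and 1, 1 and 14 between regions in high-cholesterol, Hr96[1] and all conditions. A replicate block within conditions gave 4, 6, 8, 2, 2 and 28 between regions in control, lipid-depleted, high-cholesterol, Hr96[1], Hr96[2x] and all conditions. It changed no other call by over 1.5 times. Over 135 same-numbered pairs the correlation of deviations was -0.199 to 0.521.

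With single libraries left out the counts ranged from 5 to 17 in anterior Hr96[1], 3 to 8 in posterior Hr96[1], 1 to 9 in anterior Hr96[2x], 1 to 1 in posterior Hr96[2x], 0 to 2 in posterior lipid-depleted, 0 to 0 in anterior lipid-depleted, 0 to 3 in anterior high-cholesterol and 0 to 0 in posterior high-cholesterol. Between regions they were 0 to 1 (control), 0 to 2 (lipid-depleted), 0 to 9 (high-cholesterol), 0 to 0 (Hr96[1]), 0 to 1 (Hr96[2x]) and 5 to 18 (all conditions), and 0 to 0 for region dependence. The largest shifts came without anterior high-cholesterol replicate 1, at 9 within that diet and 18 over all conditions.

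Signs reversed without scaling, with the cause not tested, for mRpL45 between lipid-depleted regions (0.02), mRpL16 (0.41), Aats-leu (0.40) and tam (0.094) between Hr96[2x] regions, mRpS11 (0.044) and mRpL35 (0.036) in the region dependence of high-cholesterol, mRpL9 in anterior Hr96[2x] (-0.013), and CG12736 (0.16), Aats-ala-m (0.27), CG3731 (0.26), nclb (0.25) and l(2)k09022 (0.25) between regions over all conditions.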
